A study of Homo sapiens with 4 samples.

Results

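The proteins of the small subunit of the mitochondrial ribosome were followed as a group of 31 genes among the 57820 features counted in ribosome profiling of BJ-Ras-ER cells. The members were chosen by name, as a list of MRPS genes together with DAP3, CHCHD1, AURKAIP1 and PTCD3. The rule uses no measured value, and it was set with earlier results of these data known. MRPS21 and MRPS36, which the study also lists for the mitochondrial ribosome, were not among the members. Of the 31 members, 30 had at least 40 counts summed over the libraries and could be compared, while MRPS17 did not. BJ-Ras-ER cells are human BJ fibroblasts expressing hTERT and an oncogenic H-Ras fused to the oestrogen receptor, which 4-hydroxytamoxifen (4-OHT) switches on. Proliferating cells, which carried the same transgenes, and cells in oncogene-induced senescence (OIS) after 100 nM 4-OHT for 12 days were each given DMSO or 10 µM GC7 for 18 h. GC7 inhibits deoxyhypusine synthase and so the hypusination of the translation factor eIF5A. In 2 samples, proliferating cells with GC7 and OIS cells with DMSO, the title and the treatment entry of the label disagree. The titles were followed, and the GC7 ratios, the state ratios within each treatment and the model of all libraries rest on them. If the entries held and named the other treatment in both samples, neither state would have both treatments. Whether the state labels hold could not be checked with marker genes, because features other than the members and the mitochondrial genes were not named here.

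The mitochondrial ribosome translates the mRNAs of the mitochondrial genome, all of which encode membrane proteins of the oxidative phosphorylation complexes. Its small subunit binds the mRNA and holds the decoding centre, and it is built from the 12S rRNA, which is transcribed inside the organelle, and from proteins encoded in the nucleus. These proteins are made by cytosolic ribosomes and imported, so footprints on their mRNAs report cytosolic translation. Some belong to families shared with bacteria and others are found only in mitochondria.

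With 1 library per condition there was no replicate spread, and no p-value could be given for a pair of libraries. Total counts ranged from 3039026 to 6553835. A level is given as CPM, the count of footprints scaled to the size of the library by TMM over nuclear features, and a ratio as log2 with a 95% exact interval that covers counting error only. A feature was called higher or lower when the ratio reached 2-fold and this interval left out equal levels. Levels in a row follow the order proliferating DMSO, proliferating GC7, OIS DMSO and OIS GC7. Footprints on a gene depend on its mRNA and on ribosome density together, which cannot be told apart here.

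The members had a lower share of the footprints in OIS cells than in proliferating cells. They took 0.170% of nuclear counts in proliferating DMSO cells (7158 counts, 95% exact binomial interval 0.167 to 0.174%) and 0.182% in proliferating GC7 cells (11957 counts, 0.179 to 0.186%). In OIS DMSO cells the share was 0.110% (2926 counts, 0.106 to 0.114%), and in OIS GC7 cells it was 0.137% (6634 counts, 0.133 to 0.140%). The intervals of all 4 libraries were apart from each other. After TMM scaling the summed level in OIS against proliferating cells differed by a log2 ratio of -0.25 in DMSO (-0.31 to -0.19) and of -0.19 in GC7 (-0.23 to -0.15). GC7 against DMSO gave a summed log2 ratio of 0.13 in OIS cells (0.07 to 0.20) and of 0.07 in proliferating cells (0.03 to 0.12).

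The promoters of these genes were read next, as the members' sequence was not part of their choice. RefSeq promoters (GRCh38.p14, 250 bases before to 50 after the gene start) were found for 30 of the 31 members, with MRPS28 not matched. The ETS core CCGGAAG, searched on both strands, was present in 12 of the 30 promoters (40%), against 10.3% of 35116 promoters and 12.8% of the 22199 promoters of protein-coding genes. The palindromic core of NRF1, a factor known for nuclear genes of the respiratory chain, was in 2 of the 30 (6.67%), MRPS9 and MRPS33. It was in 5.78% of all promoters and 7.39% of those of protein-coding genes. A match is a description of these letters only. The 100 bases before the start are shown for MRPS34, the member with the highest level per kilobase in proliferating cells and 3 ETS matches, for MRPS22 with a facing pair of matches, and for MRPS31 and MRPS24, the 2 members called lower in OIS DMSO cells. Capitals mark the ETS core on either strand, and each run is written 5′ to 3′ on the strand of the gene.
MRPS34: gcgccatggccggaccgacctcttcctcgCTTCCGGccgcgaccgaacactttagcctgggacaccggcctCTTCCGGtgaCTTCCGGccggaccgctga
MRPS22: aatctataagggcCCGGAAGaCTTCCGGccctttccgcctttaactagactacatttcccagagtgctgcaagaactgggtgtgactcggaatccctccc
MRPS31: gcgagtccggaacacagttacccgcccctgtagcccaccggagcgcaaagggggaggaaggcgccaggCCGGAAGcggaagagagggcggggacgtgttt
MRPS24: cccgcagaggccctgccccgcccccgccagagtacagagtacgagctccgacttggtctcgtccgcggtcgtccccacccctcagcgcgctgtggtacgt
In GRCh38.p14 they lie at chr16:1773135-1773234 (minus strand), chr3:139343894-139343993 (plus strand), chr13:40771191-40771290 (minus strand) and chr7:43869518-43869617 (minus strand). MRPS31 and MRPS24 shared the call in OIS but not the ETS core, since MRPS24 held neither motif in its whole promoter. The 4 members that fell with OIS in the model of all libraries were likewise mixed. MRPS18C held an ETS core at position -222 from the start and MRPS33 one at the start, while MRPS11 and MRPS24 held none.

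Levels between genes were compared per kilobase of exonic length, since longer genes collect more footprints. MRPS34, a mitochondria-specific protein needed to keep the 12S rRNA stable, had the highest level in proliferating cells, with 80.3 CPM per kilobase in DMSO and 77.2 in GC7. AURKAIP1, a mitochondria-specific protein of the mature subunit, was highest in OIS cells, with 50.8 in DMSO and 69.5 in GC7. MRPS23 came next, with 46.2, 54.7, 31.9 and 41.4 in the 4 libraries. At the other end, MRPS25 had 3.67, 3.96, 5.72 and 5.29, PTCD3 had 5.06, 4.56, 8.38 and 4.80, and MRPS5 had 5.49, 5.67, 6.37 and 5.97. Proteins of 1 particle thus spanned a 21.9-fold range of levels per kilobase in proliferating DMSO cells and an 11.2-fold range in OIS DMSO cells. In each library 28 of the 30 members lay above the median of all tested features, which was 5.40 in proliferating DMSO cells against 15.7 for the members. The order of members hardly moved between states, with a Spearman's rho of 0.90 across 30 members between the DMSO libraries, given as a description over genes. Exonic length includes untranslated parts. Per coding kilobase, which could be computed for 25 members, MRPS16 was highest in every library and the range was 15.9-fold in proliferating DMSO cells and 23.6-fold in OIS DMSO cells. The lowest member on this scale was MRPS18B in proliferating DMSO cells and MRPS31 in the other libraries. In OIS DMSO cells MRPS31 was also lowest per exonic kilobase, at 4.54. On that scale MRPS25 had 38.0, 41.1, 59.3 and 54.9, against a median of 68.5 in proliferating DMSO cells and 58.4 in OIS DMSO cells. MRPS27, MRPS28, CHCHD1, AURKAIP1 and PTCD3 could not be computed. The ranges on the 2 scales thus cover different members, and AURKAIP1, highest per exonic kilobase in OIS cells, is left out of the second.

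The first question was how footprints on these genes differed between the states. In DMSO, the median log2 ratio of OIS to proliferating cells over the 30 members was -0.35, against -0.02 over all 11128 tested features, and 22 members lay below 0 and 8 above. By the 2-fold rule 2 members were called lower, MRPS24 and MRPS31, and 0 higher, against 12.6% and 14% of all features. With the interval alone 16 members (53.3%) were lower and 2 higher, against 27% and 29.1% of features. At 1.5-fold 7 were lower and 2 higher, against 20.9% and 22.4%. In GC7, the median was -0.24 against -0.01 over all features, again with 22 members below 0. Scaled to the total count instead, 28 members in DMSO and 26 in GC7 lay below 0, and the median of all features was itself lower, at -0.40 and -0.24. With TMM scaling, 1 member, MRPS6, was called higher in GC7 and 0 lower, against 12% and 11.6% of features, and under total count 0 were higher and 2 lower, against 8.46% and 16.6%. With the interval alone 15 were lower and 5 higher, against 31.3% and 31.8%, and at 1.5-fold 4 were lower and 1 higher, against 20.9% and 21.1%. The 2 comparisons share no library. The interval lay below equal levels in both for 12 members, MRPS7, MRPS11, MRPS14, MRPS15, MRPS16, MRPS18C, MRPS23, MRPS24, MRPS28, MRPS33, MRPS34 and MRPS35, and above in both for MRPS25 alone, while 18.8% of all features were lower in both and 22.4% higher. No member had opposite intervals in the 2 treatments, against 2.36% of all features.

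The additive model over all 4 libraries was the main test, with state and treatment as terms and 1 residual degree of freedom. By edgeR's quasi-likelihood test with Benjamini-Hochberg adjustment over 11128 features, 4 members fell with OIS and 0 rose, against 14.5% of features lower and 18% higher. The 13.3% of members that fell was near the background under TMM. The count depended on the scaling, with 8 lower under upper quartile, against 17.4% of features, and 16 under total count, against 25.1%. Without adjustment 10 members were lower at a p under 0.05 and 1 was higher, against 19.9% and 22.6% of features. DESeq2 in the same model called 0 members lower, against 7.09% of features.

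Among the proteins of families shared with bacteria, MRPS24, the counterpart of bacterial S3 at the mRNA entry (ENSG00000062582.9, hg19 chr7:43906157-43909492), stood lowest in both treatments. Its levels were 31.2, 33.2, 14.7 and 16.6 CPM, so both OIS libraries were about as low as each other and well under both proliferating ones. The OIS DMSO library gave it 33 counts. The log2 ratio of OIS to proliferating cells was -1.07 in DMSO (-1.68 to -0.53) and -0.99 in GC7 (-1.39 to -0.62), and the additive model gave -1.04 with an adjusted p of 0.00577 by edgeR. Of its exonic bases, 606 are shared with a feature on the same strand that had 0 counts in each library. MRPS18C, a homologue of bacterial S18 (hg19 chr4:84377085-84390888), followed the same order with 42.7, 48.5, 24.1 and 26.7 CPM. It fell by 0.84 on the log2 scale in the additive model (edgeR adjusted p = 0.00989), and it shares 1778 exonic bases with a feature of the opposite strand, so reads there may belong to either where strand was not used in counting. MRPS11, the homologue of S11 in the platform of the subunit (hg19 chr15:89010684-89022222), shares no exonic base with another feature. Its levels were 55.1, 50.3, 32.1 and 37.1 and its additive log2 change was -0.59 (edgeR adjusted p = 0.0477), close to the threshold.

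MRPS6 (ENSG00000243927.1, hg19 chr21:35445524-35515334), the homologue of S6, had its extremes in the GC7 libraries. Its levels were 46.2, 27.3, 41.0 and 58.2 CPM, lowest in proliferating GC7 cells and highest in OIS GC7 cells. In GC7 its log2 ratio of OIS to proliferating cells was 1.09 (0.82 to 1.36), and in DMSO it was -0.17 (-0.54 to 0.19). Under total-count scaling the ratio in GC7 was 0.86 (0.60 to 1.14), above equal levels but short of 2-fold, so the call was lost. It shares 413 exonic bases with 3 features of the same strand, all with 0 counts.

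The remaining members of bacterial families were called neither by the 2-fold rule nor by the additive model with the main scaling and filter. MRPS7, a head protein, had 125, 118, 96.8 and 98.6 CPM, and MRPS14, another head protein, had 44.7, 42.1, 32.1 and 34.1. MRPS16 had 97.1, 128, 73.2 and 86.3, and MRPS15 had 59.0, 69.3, 46.8 and 59.3. All 4 were lower in OIS by the interval in both treatments. MRPS28, the member related to bacterial S1, had 33.0, 25.7, 22.3 and 19.6 CPM, and its ratios of -0.56 and -0.39 also had intervals below equal levels. It shares 282 bases on its own strand with a feature that had 37, 63, 1 and 2 counts. MRPS12, whose bacterial counterpart sits in the decoding centre, had 34.9, 57.2, 31.2 and 42.1 CPM, and was lower in OIS by the interval in GC7 only. MRPS10 had 31.4, 41.4, 35.2 and 33.4 and was also lower in OIS by the interval in GC7 only. MRPS9 had 35.3, 30.7, 30.3 and 29.1, and MRPS2 had 33.2, 31.7, 36.1 and 29.98. MRPS5, at 36.9, 38.1, 42.8 and 40.1, was the only bacterial-family member above 0 in both treatments, with intervals that included equal levels. Exonic bases are shared with other features by 17 of the 31 members, in 6 of them on the same strand, namely MRPS5, MRPS6, MRPS16, MRPS17, MRPS24 and MRPS28. Over the 14 bacterial-family members tested the median ratio was -0.35 in DMSO and -0.30 in GC7.

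MRPS17, the homologue of S17, could not be compared. It had 1, 0, 4 and 2 counts in the 4 libraries, although it encodes a protein of the same particle. A count of 0 allows up to 3 counts, or 0.41 CPM in the proliferating GC7 library. Of its 2157 exonic bases 583 (27.0%) are shared with 2 features of the same strand. The larger overlap, of 471 bases, is with a feature that had 0 counts in each library. The smaller, of 112 bases, is with a feature that had 134, 239, 40 and 101 counts. Reads in shared bases could have been left out or given to the other feature, which was not tested.

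Of the mitochondria-specific proteins, MRPS31 (ENSG00000102738.6, hg19 chr13:41303432-41345309) was called lower in OIS DMSO cells. Its levels were 19.1, 22.0, 8.92 and 17.3 CPM, low in OIS DMSO alone. That library gave it 20 counts, and its log2 ratio of -1.07 had a wide interval (-1.88 to -0.38). In GC7 the ratio was -0.35 (-0.76 to 0.05), and in the additive model it did not pass (edgeR adjusted p = 0.114). MRPS33 (hg19 chr7:140705854-140715028), with 34.3, 39.9, 20.1 and 27.0, fell by 0.65 on the log2 scale in the additive model (edgeR adjusted p = 0.0406). CHCHD1, a small protein with a twin cysteine motif, had 54.6, 58.1, 28.5 and 50.9 CPM, again lowest in OIS DMSO cells, with log2 ratios of -0.93 in DMSO (-1.36 to -0.54) and -0.19 in GC7 (-0.43 to 0.04). MRPS34 had 88.0, 84.7, 51.3 and 72.7, for ratios of -0.78 and -0.22, both with intervals below equal levels.

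MRPS23 and MRPS35 were lower in OIS by the interval in both treatments, with 77.6, 91.8, 53.5 and 69.5 CPM for MRPS23 and 66.4, 83.5, 53.5 and 51.6 for MRPS35. AURKAIP1 had 113, 127, 84.8 and 116, and MRPS26 had 34.3, 27.2, 22.7 and 30.4. Both were lower by the interval in DMSO only. MRPS18B, a mitochondria-specific relative of S18, had 11.5, 16.1, 10.7 and 13.2 CPM, and MRPS22 had 65.1, 76.5, 64.2 and 67.9. The ratios of both had intervals that included equal levels in each treatment.

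A smaller group of mitochondria-specific proteins lay on the other side. PTCD3, a pentatricopeptide repeat protein at the mRNA entry (hg19 chr2:86333305-86369280), had 51.4, 46.3, 85.2 and 48.7 CPM. The OIS DMSO library was the high one, and the log2 ratio was 0.73 in DMSO (0.45 to 1.01) but 0.07 in GC7 (-0.18 to 0.32). MRPS25 had 19.7, 21.3, 30.8 and 28.5, with ratios of 0.63 (0.17 to 1.11) and 0.41 (0.07 to 0.76). MRPS27, which also carries pentatricopeptide repeats, had 60.3, 46.9, 69.6 and 61.9, and DAP3, a GTP-binding protein first described in cell death, had 88.0, 76.5, 96.8 and 88.0. Their ratios in GC7 were 0.40 (0.17 to 0.63) and 0.20 (0.01 to 0.39), and in DMSO the intervals included equal levels. Over the 14 mitochondria-specific members the median was -0.36 in DMSO and -0.18 in GC7.

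MRPS18A and MRPS30 carry names of the small subunit but are placed in the large subunit in structures of the mitochondrial ribosome. MRPS18A had 19.3, 25, 14.7 and 16.2 CPM, with ratios of -0.38 (-1.01 to 0.20) and -0.62 (-1.04 to -0.23). It shares 604 exonic bases (47.0%) with a feature of the opposite strand that had between 1 and 6 counts. MRPS30 (ENSG00000112996.5, hg19 chr5:44809027-44820530), at 43.2, 49.3, 49.1 and 59.5, was higher in OIS by the interval in GC7 only, at 0.27 (0.04 to 0.50).

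The second question was how footprints on these genes differed between GC7 and DMSO in each state. In OIS cells the median log2 ratio of GC7 to DMSO over the members was 0.16, against 0.01 over all features, and 20 members lay above 0 and 10 below. Under total-count scaling 28 lay above 0, with a median of all features of 0.19. No member reached the 2-fold rule, with 0 called higher and 0 lower, against 3.53% and 2.75% of features. With the interval alone 8 members (26.7%) were higher and 1 lower, against 15.3% and 18%. At 1.5-fold the members were 2 higher, MRPS31 and CHCHD1, and 1 lower, PTCD3, against 7.77% and 7.83% of features. In proliferating cells the median was 0.10, against 0.02, and again 0 members were called higher or lower, against 3.46% and 2.08% of features. By the interval alone 10 members were higher and 5 lower there, against 20.1% and 19.4%, and at 1.5-fold 1 was higher, MRPS12, and 1 lower, MRPS6, against 8.57% and 6.78%. The additive model by edgeR called 0 members in either direction for GC7, against 0.144% of features higher and 0.243% lower, with 1 member in each direction at an unadjusted p under 0.05, against 4.64% of features higher and 5.02% lower. DESeq2 also called 0, against 0.0988% of features higher and 0.261% lower.

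In OIS cells MRPS31 and CHCHD1, both low in OIS DMSO cells, had the highest ratios. MRPS31 had 0.93 (0.23 to 1.74), on 20 counts in DMSO and 80 in GC7, and CHCHD1 had 0.83 (0.43 to 1.26). MRPS34 and MRPS6 followed with 0.50 each, and AURKAIP1 had 0.45 (0.21 to 0.70). These ratios and the OIS ratios in DMSO share the OIS DMSO library, so a low value there raises the first and lowers the second. PTCD3 was the 1 member lower by the interval, at -0.80 (-1.09 to -0.52), and it was also the highest in OIS DMSO cells relative to proliferating ones. The next lowest were MRPS2 at -0.27 and MRPS28 at -0.18, with intervals that included equal levels.

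In proliferating cells MRPS12 had the highest ratio, 0.71 (0.45 to 0.98), followed by MRPS18B at 0.48, on 53 and 118 counts, and MRPS16 at 0.40 (0.24 to 0.57). MRPS6 was lowest at -0.75 (-1.04 to -0.47). MRPS27 and MRPS28 came next, both at -0.36 with intervals below equal levels. The 2 GC7 comparisons share no library. MRPS12, MRPS15, MRPS23 and AURKAIP1 were higher by the interval in both states (4 of 30 members, against 5.10% of features), 0 members were lower in both (6.68% of features), and MRPS6 alone had opposite intervals (4.67% of features). Across the 30 members the ratios in the 2 states had a Pearson's r of 0.22, and across all features it was 0.25, both as descriptions over genes.

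A fit of the difference between the GC7 responses of the 2 states leaves no residual degree of freedom, so this difference was not tested. The median of the difference was 0.10 over the members (quartiles -0.18 and 0.20) and -0.01 over all features (quartiles -0.39 and 0.37). For MRPS6 it was 1.26 (0.82 to 1.69) and for PTCD3 -0.65 (-1.02 to -0.29). The share of all features whose interval of the difference left out 0 is not given here, so the counts of members are a description only. Counting intervals lay above 0 for 5 members and below 0 for 2. Besides MRPS6, the former were CHCHD1 at 0.74, MRPS26 at 0.75, MRPS34 at 0.56 and AURKAIP1 at 0.29 (0.0016 to 0.57). Besides PTCD3, the latter was MRPS35 at -0.38 (-0.76 to -0.01). MRPS30 had GC7 ratios of 0.28 in OIS cells (-0.04 to 0.61) and 0.19 in proliferating cells (-0.06 to 0.45), and the difference of 0.09 had an interval of -0.32 to 0.49. Its counts were 199, 361, 110 and 276.

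eIF5A is known to help ribosomes through stretches rich in proline, glycine and charged residues, so such tripeptides were counted in the proteins. In 26 member proteins listed by the study, tripeptides made of P, G, D, E, K or R with at least 1 P numbered 6.12 ± 4.68 per protein (SD over proteins). MRPS30 held the most, 22, MRPS12 and MRPS5 held 13 each, and MRPS6, MRPS16, MRPS17 and MRPS26 held 1 each. Per 100 residues MRPS12 was highest at 9.42. In OIS cells the GC7 ratio of the 25 compared members had a Pearson's r of -0.02 with the number of motifs and of 0.12 with motifs per 100 residues. In proliferating cells the values were 0.34 and 0.58, and the latter includes MRPS12, which has the highest value on both axes. The points come from the same libraries, and these correlations over genes are given without a test.

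Exonic length was set against the ratios next. The log2 ratio of OIS to proliferating cells in DMSO had a Pearson's r of 0.62 with log2 exonic length across 30 members, and the GC7 ratio in OIS cells one of -0.54. Both use the OIS DMSO library. Across all 11128 tested features the same 2 values were 0.10 and -0.13. For OIS against proliferating cells in GC7, r was 0.40 over the members and 0.03 over all features. All 12 members under 2000 exonic bases had lower footprints in OIS DMSO than in proliferating DMSO cells, with a median of -0.55, and the 1123 tested features of that length had a median of -0.32. The 9 members of 4000 bases or more had a median of 0.18, and features of that length one of 0.09. Between these limits 9 members had a median of -0.37 and features one of -0.16. Members of each length class thus lay on the same side as features of like length, at a larger median. In GC7 the medians of the 3 classes of members were -0.32, -0.31 and 0.20, against -0.16, -0.08 and 0.03 for features. The part of length in the ratios of single members was not tested.

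The RNA of the same subunit is encoded in the mitochondrial genome, and its signal is not that of the proteins. RNR1, the 12S rRNA (chrM, 648 to 1601), had 2979, 38, 76546 and 531 counts. These counts are not footprints of translated codons. GC7 libraries were low in both states, with log2 ratios to DMSO of -6.91 in proliferating cells (-7.46 to -6.50) and -8.22 in OIS cells (-8.35 to -8.10). All mitochondrially encoded counts moved the same way, with 124760, 1843, 369510 and 6861. No member's ratio of GC7 to DMSO went beyond 0.93 in either direction. How much of the RNR1 difference came from preparing the libraries was not tested.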

How the data were processed

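Cytoplasmic ribosome footprints were sequenced from 4 libraries, 1 per condition, so the samples have no replicates. Per the file headers and the submitters' processing notes, the authors aligned reads to hg19 with STAR 2.5.3a and counted them with featureCounts 1.5.1 on GENCODE 19, and the deposited values are raw counts per gene. No setting for strand, for multi-mapping reads or for features that overlap stands in those headers. How molecular identifiers were used is not given in these sources, and a read may not be an independent molecule.

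Groups came from the sample titles. Members were matched by gene identifier, 31 of 31, and their symbols were checked by chromosome against RefSeq. The members and lists were chosen with earlier results of these data known. Mitochondrial features were kept out of scaling. Nuclear features with at least 40 counts over the 4 libraries were scaled by TMM (edgeR 4.0.16, R 4.3.3), and log2 ratios used a prior count of 1. Intervals were exact conditional binomial intervals at 95% (scipy 1.17.1, Python 3.11.15), and the interval of a difference of ratios was a Wald interval from the counts. The additive model used edgeR's quasi-likelihood test with an adjusted p under 0.05. Its p-values measure spread from the difference between the GC7 responses of the 2 states, pooled over features, with no separate cultures behind them. A member whose GC7 responses differ between the states thus has a larger residual. Alternatives were DESeq2 1.42.0, total-count and upper-quartile scaling, filters of 400 counts and of 1 count, a larger prior count (5) and a limit of 1.5-fold.

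Values in every library are given for members with the 3 highest or lowest ratios or levels, those called, MRPS30, DAP3, CHCHD1, AURKAIP1, PTCD3 and those sharing exonic bases with another feature (17 of 31). The remaining members were added for completeness. RefSeq proteins were to be used for motifs, but the sequences listed by the study were taken in their place. MRPS27 and MRPS28, whose listed sequences hold internal stops, and CHCHD1, AURKAIP1 and PTCD3 were left out of motif counts. The RefSeq table named 0 of the 57820 features by identifier, so lists of other mitochondrial translation genes and of cell type markers have no result.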

Additional observations from a re-analysis of the deposited data

Results flagged for a closer look

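MRPS6 was the 1 member whose GC7 ratios had counting intervals on opposite sides of equal levels in the 2 states. It had 213 counts in proliferating DMSO cells, 200 in proliferating GC7 cells, 92 in OIS DMSO cells and 270 in OIS GC7 cells. The log2 ratio of GC7 to DMSO was -0.75 in proliferating and 0.50 in OIS cells, a difference of 1.26 (0.82 to 1.69). With 1 library per condition this difference was not tested, and among all tested features 4.67% showed opposite intervals.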

How the results depend on the processing

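No paired analysis was possible because each condition has 1 library and the labels carry no replicate numbers, and for the same reason no replicate could be left out. Of the recomputed values, 87 stayed within the limits used and 44 moved, none reversed. Scaling to total count shifted the all-feature median to 0.19, -0.40 and -0.24 (GC7 in OIS, OIS in DMSO, OIS in GC7), and the medians of the members to 0.34, -0.74 and -0.46, with 0.26 for the difference of GC7 responses. Upper-quartile scaling gave -0.47 and -0.32 for the 2 OIS comparisons. Relative to all features, members differed by 0.15 (GC7 in OIS), -0.34 (OIS in DMSO) and -0.23 (OIS in GC7) under total-count scaling, and by 0.15, -0.33 and -0.22 in the scaling reported. A filter of 400 counts gave -0.28 for OIS in GC7, a filter of 1 count gave -0.30 there and 0.16 for GC7 in proliferating cells. Members sharing no exonic base (14), an alternative chosen after seeing the data, gave 0.36 and 0.20 for GC7 in OIS and proliferating cells and -0.48 for OIS in DMSO.

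Members called higher with GC7 in OIS cells were 2 under total count (5.84% of features), 2 at 1.5-fold and 8 by the interval alone, and lower ones were 1 and 1 by the latter rules. In proliferating cells 1 was higher and 1 lower at 1.5-fold, and 10 and 5 by the interval. For OIS in DMSO 2 were higher at 1.5-fold and 2 by the interval, and lower ones were 7 (total count, 22.6% of features), 1 (filter of 400, which leaves out MRPS31, 10.6%), 7 (1.5-fold) and 16 (interval). A prior count of 5 also left 1 lower in that comparison, against 11.3% of features. For OIS in GC7 0 were higher under total count (8.46%) and 5 by the interval, and lower ones were 2 (total count, 16.6%), 1 (upper quartile, 13.3%), 1 (filter of 400, 9.53%), 1 (filter of 1, 7.52%), 4 (1.5-fold) and 15 (interval). The 4 members that fell with OIS in the additive model became 0 with DESeq2 (7.09% of features), 2 without the treatment term (MRPS18C and MRPS24, 10.7%), 7 with a filter of 400 (19.5%), 16 under total count (25.1%) and 8 under upper quartile (17.4%). The causes were not tested, other than fewer features passing a filter. Levels per coding kilobase, chosen after seeing the data, cover 25 members, without AURKAIP1. Their range was 15.9, 16.8 and 23.6 in place of 21.9 (proliferating DMSO), 19.5 (proliferating GC7) and 11.2 (OIS DMSO). Adjacent prolines averaged 1.15 per protein. Depth limits low members most. For OIS in DMSO, the intervals of MRPS31, MRPS18B, MRPS18A and MRPS24 were over 1 log2 unit wide. These members had 20, 24, 33 and 33 counts in OIS DMSO cells.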
